A study of Homo sapiens with 4 samples.

Results

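The transcripts described here are 10 feedback inhibitors of receptor tyrosine kinase, RAS and ERK signaling, namely DUSP1, DUSP4, DUSP5, DUSP6, DUSP7, SPRY1, SPRY2, SPRY4, SPRED1 and SPRED2. They were picked by gene symbol from the 23228 genes listed in each count table, and all 10 were present. The list was chosen by family membership with the log2 fold changes between liquiritigenin (Liq) and vehicle already known, so the differences of the 10 genes in that comparison are given as a description and without p-values. The RNA came from ES2 cells, an established human ovarian cancer cell line cultured without phenol red in charcoal-stripped serum. Both groups had the same medium, and samples received either vehicle or Liq, a licorice flavanone used as an ERβ agonist, at 100 μM (the dose in the methods of the study) for 24 h. Each group had 2 samples, of 1 cell line at 1 dose and 1 time. Nothing in the labels says whether the 2 came from separate cultures. Each SD given is therefore only the spread between these samples. Each SE comes from a fit that shares the spread across genes, and it too is limited to these samples.

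ERK is switched on by phosphorylation, through a chain that runs from growth factor receptors to RAS, RAF and MEK, and its activity raises the transcripts of its own inhibitors. Dual-specificity phosphatases (DUSPs) of the MAPK phosphatase family remove the activating phosphates. DUSP1, DUSP4 and DUSP5 act in the nucleus, and DUSP6 and DUSP7 act on ERK in the cytoplasm. Sprouty and SPRED proteins work further up, between the receptor and RAF. SPRED proteins bring neurofibromin, a RAS GTPase-activating protein, to the membrane. Because these genes are transcribed in response to ERK, their mRNAs are widely read as markers of pathway output.

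Reads counted on genes numbered 34573053 to 48933893 per sample, the largest total being 1.42 times the smallest. Another 35.6% to 36.2% of the tallied reads aligned at several places and were not counted on any gene. Counts were scaled to a common library size with TMM factors and are given as CPM. Of the markers fixed for the line, VIM (7479 CPM in vehicle), KRT7 (251.8 CPM) and KRT18 (197.7 CPM) were high, whereas EPCAM, KRT19 and MUC16 had 0 to 3 counts in any sample. The blood markers PTPRC and CD3E had 0 or 1 count and CD14 had 3 to 11, while of 3 endothelial markers CDH5 stood at 44.6 to 52.9 CPM in the 4 samples and PECAM1 and VWF had 1 to 10 counts. ESR2, which encodes ERβ, had 4 and 7 counts after vehicle and 5 and 14 after Liq, too few to be tested. ESR1, which encodes ERα, had 17 to 34 counts and a log2 fold change of 0.31 (SE 0.34, edgeR adjusted p = 0.5539).

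Promoter sequences are shown for the member with the largest difference (DUSP6), the one that came next (SPRY4) and one with a small difference (DUSP1). They are the 250 bases before the RefSeq start site in GRCh38.p14, all on the minus strand and written 5′ to 3′. DUSP6 lies at chr12:89352502-89352751, SPRY4 at chr5:142324248-142324497 and DUSP1 at chr5:172771196-172771445. Capitals mark 2 short motifs searched on both strands, the ETS core CGGAA and the cAMP response element half-site TGACG.
DUSP6: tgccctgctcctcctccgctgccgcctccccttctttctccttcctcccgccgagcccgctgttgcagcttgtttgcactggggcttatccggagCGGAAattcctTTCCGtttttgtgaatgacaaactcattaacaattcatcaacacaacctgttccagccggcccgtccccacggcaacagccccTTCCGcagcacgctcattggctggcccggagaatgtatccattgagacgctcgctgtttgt
SPRY4: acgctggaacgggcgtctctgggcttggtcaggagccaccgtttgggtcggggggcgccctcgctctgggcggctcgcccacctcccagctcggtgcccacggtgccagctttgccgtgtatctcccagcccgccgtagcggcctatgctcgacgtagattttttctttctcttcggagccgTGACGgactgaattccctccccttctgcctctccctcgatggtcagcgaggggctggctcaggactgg
DUSP1: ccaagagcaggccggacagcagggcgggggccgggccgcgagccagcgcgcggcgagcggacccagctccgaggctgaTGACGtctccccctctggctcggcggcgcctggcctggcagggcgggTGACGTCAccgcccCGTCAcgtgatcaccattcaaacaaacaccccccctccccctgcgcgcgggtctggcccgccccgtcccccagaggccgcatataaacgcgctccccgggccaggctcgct
The DUSP6 window held 3 ETS cores, which began 155, 144 and 61 bases before the start, and no half-site. The SPRY4 window held no ETS core and 1 half-site, 68 bases before the start. DUSP1 had no ETS core but 4 half-site matches, 2 of which overlap on opposite strands and form the full element TGACGTCA.

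Promoter windows were searched for 8 of the 10 members, with 12 start sites between them. The search of members left out chromosome 8, where DUSP4 lies, although the count over all promoters kept it. DUSP5 was not matched. The ETS core occurred before a start site of 3 of the 8, which were DUSP6, SPRY1 and SPRY2 (3 of the 12 windows), and in 30.3% of all 35116 promoters of the same length. A half-site was found for DUSP1, SPRY2 and SPRY4, again in 3 of the 12 windows, against 21.2% of all promoters. A longer ETS form, CCGGAAG, and the E-box CACGTG, found in 8.52% and 6.34% of promoters, matched SPRY1 and DUSP1, in 1 window each. The E-box match overlaps a half-site. AP-1 motifs (TGANTCA, 6.57% of promoters), NF-κB motifs (1.4%) and CArG boxes (1.16%) had no match in the 12 windows. The motifs were picked with these sequences in view, and a match does not show that a factor binds.

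In each Liq sample all 10 transcripts were below the lower of the vehicle samples. The sizes were unequal, since DUSP6 and SPRY4 stood 46.2% and 44.03% below vehicle and the other 8 stood 12.2% to 30.0% below. Calls required a 1.5-fold difference or more and a Benjamini-Hochberg adjusted p-value under 0.05 in edgeR's quasi-likelihood test over the 13546 genes that passed the filter on low counts, and all 10 members passed that filter. By this rule 2 of the 10 members were called, both lower, while 2.16% of all tested genes were called lower and 6.45% were called in either direction. Without a minimum fold change, 9 of the 10 were lower at the same adjusted p-value, beside 11.3% of all genes. That 9 became 6 when vehicle replicate 1, vehicle replicate 2 or Liq replicate 2 was left out, and DUSP1, DUSP4, DUSP7 and SPRY1 were then outside. The samples of the 2 groups did not overlap, with Liq below, in 30.2% of all genes. The median log2 fold change was -0.41 over the 10 members and 0.0062 over all tested genes. These counts describe genes chosen with this contrast known and are not evidence about the family.

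**Figure D1:**
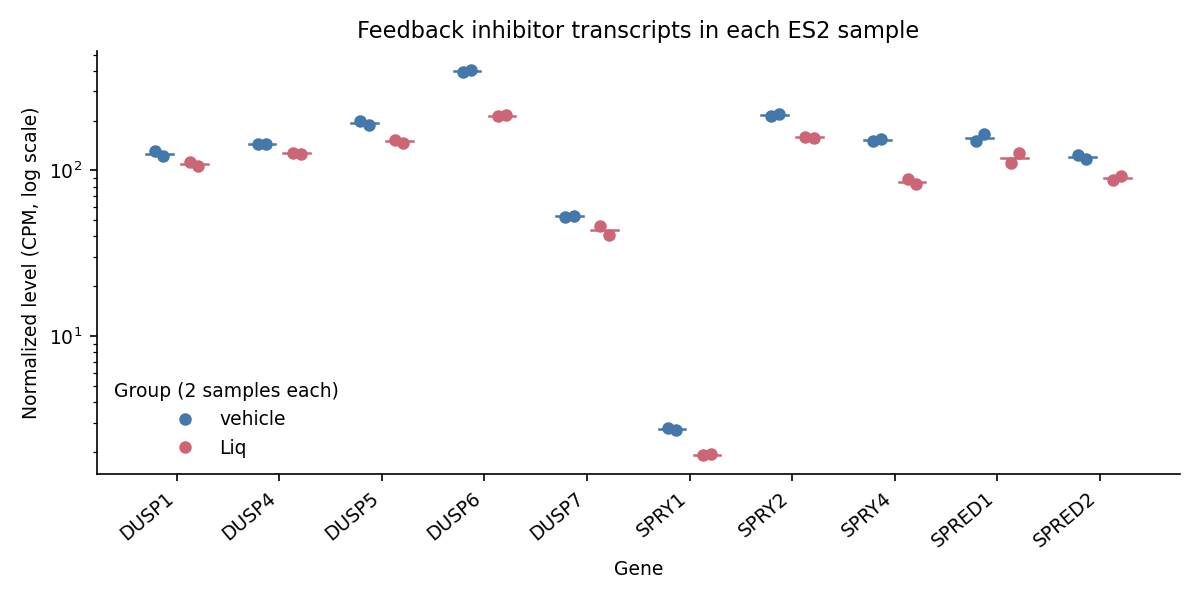
Normalized level (CPM, log scale) of the 10 feedback inhibitors in each sample, with blue points for vehicle, red points for Liq and a line at the mean of the 2 samples. For every gene both red points lie below both blue points, with the widest separation for DUSP6 (391 and 404 CPM against 212 and 216) and SPRY4.

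Among the cytoplasmic phosphatases, DUSP6, the ERK-selective enzyme, had the highest vehicle level. Its reads numbered 16076 and 15131 after vehicle and 7532 and 10821 after Liq, or 391.0 and 404.2 CPM against 211.8 and 215.6 CPM. The deeper Liq library therefore held more DUSP6 reads than the shallower one, but the normalized levels of the 2 differed by only 3.80 CPM. The gap between the lowest vehicle and the highest Liq sample was 175.4 CPM, 13.3 times the larger spread within a group. On the log2 scale the difference was -0.90 (SE 0.07), which is 1.86-fold lower. DUSP6 lies on chromosome 12 from 89741012 to 89746278 (GRCh37, GENCODE), on the minus strand.

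DUSP7, the close relative of DUSP6, was expressed at a much lower level and differed less. Its samples had 52.8 and 53.2 CPM with vehicle and 46.3 and 40.7 CPM with Liq, and the log2 fold change was -0.29 (SE 0.09). The groups were separated by 6.41 CPM, about as much as the 2 Liq samples differed from each other (5.68 CPM). DUSP7 is on chromosome 3 from 52082935 to 52090587.

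Of the nuclear phosphatases, DUSP1 and DUSP4 had the smallest differences of the 10 members. DUSP5, which is specific for ERK, had 200.02 and 187.0 CPM in vehicle and 152.6 and 147.2 CPM in Liq, a log2 fold change of -0.37 (SE 0.07). DUSP1, a phosphatase with JNK and p38 among its substrates, had 131.1 and 122.1 CPM against 112.6 and 106.7 CPM. Its log2 fold change was -0.21 (SE 0.07), and the gap between the groups, 9.51 CPM, was hardly wider than the spread of the vehicle samples, 9.0 CPM. DUSP4 had closely matched replicates, at 144.8 and 145.0 CPM in vehicle and 128.1 and 126.3 CPM in Liq. The gap between its groups was 16.7 CPM, 8.98 times the larger spread within a group. DUSP4 had the smallest log2 fold change of the 10, -0.19 (SE 0.07). It was the 1 member outside the adjusted p-value threshold, although it was inside with a replicate block, and with DESeq2 the member outside was SPRY1. With upper-quartile scaling 7 members were inside, and DUSP1, DUSP4 and SPRY1 were outside. With offsets that followed the expression level 8 were inside, and DUSP1 and DUSP4 were outside. DUSP5 lies on chromosome 10 from 112257665 to 112271291 and DUSP1 on chromosome 5 from 172195099 to 172198198.

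Ratios of raw counts within a library, which need no normalization, show how far DUSP6 moved apart from the nuclear enzymes. There were 2.70 and 2.79 DUSP6 reads for each DUSP4 read after vehicle and 1.65 and 1.71 after Liq. Against DUSP1 the ratio was 2.98 and 3.31 in vehicle and 1.88 and 2.02 in Liq. Against SPRY4, on the other hand, the DUSP6 ratio was 2.60 and 2.62 in vehicle and 2.40 and 2.61 in Liq, and the groups overlapped.

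**Figure D2:**
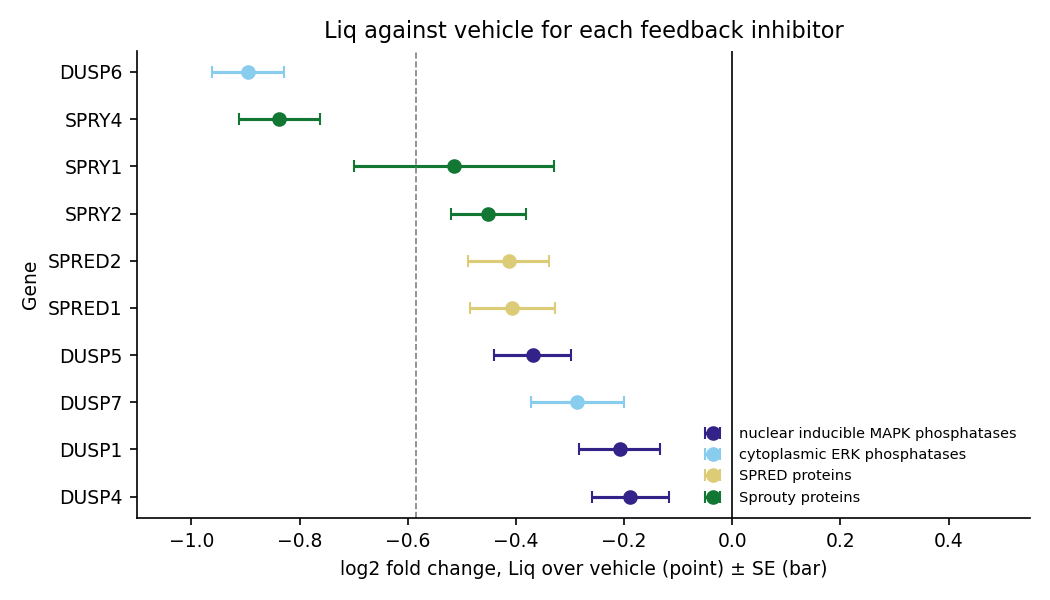
Log2 fold change of each member, Liq over vehicle (point), with its SE (bar), coloured by role and sorted by size, with a dashed line at a 1.5-fold decrease. DUSP6 (-0.90) and SPRY4 (-0.84) lie beyond the line with their bars, the bar of SPRY1 (-0.51, SE 0.18) crosses it, and DUSP4 (-0.19) is nearest 0.

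Sprouty genes had a graded response. SPRY4 had 150.5 and 154.5 CPM with vehicle and 88.3 and 82.5 CPM with Liq, a log2 fold change of -0.84 (SE 0.07) and a gap of 62.2 CPM. SPRY2, the most abundant Sprouty transcript in these cells, had 213.2 and 219.9 CPM against 160.1 and 156.8 CPM. At -0.45 (SE 0.07) on the log2 scale it differed from vehicle by less than SPRY4 did, and the number of SPRY4 reads for each SPRY2 read was 0.706 and 0.702 in vehicle and 0.552 and 0.526 in Liq. SPRY1 was rare, with 114 and 102 counts in vehicle and 68 and 97 in Liq, or 2.77 and 2.72 CPM against 1.91 and 1.93 CPM. Its log2 fold change of -0.51 (SE 0.18) was the third largest and the least precise. SPRY4 is on chromosome 5 from 141689992 to 141706020, SPRY2 on chromosome 13 from 80910111 to 80915261 and SPRY1 on chromosome 4 from 124317950 to 124324915.

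The SPRED genes had nearly the same fold change. SPRED1, the gene mutated in Legius syndrome, had 150.6 and 165.1 CPM in vehicle and 110.7 and 127.1 CPM in Liq, with a log2 fold change of -0.41 (SE 0.08). Its replicates were the most scattered of the 10 in CPM in the Liq group, where they differed by 16.4 CPM. SPRED2 had 123.4 and 117.6 CPM against 87.7 and 93.1 CPM, also with a log2 fold change of -0.41 (SE 0.08). SPRED1 lies on chromosome 15 from 38545037 to 38649450 and SPRED2 on chromosome 2 from 65537985 to 65659771.

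The annotation places a long noncoding RNA on the opposite strand over part of DUSP1, DUSP6 and SPRY4, and 1 on the same strand over SPRED2. The strand setting of the counting is not given in the sources used here, so reads of these partners cannot be told apart from those of the members. In bulk RNA a lower level in every cell and a smaller share of cells with the transcript cannot be told apart either.

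Levels were compared between genes as RPKM, that is CPM per kilobase of the union of annotated exons. In vehicle DUSP6 ranked first at 103 ± 2 RPKM (SD, n = 2), followed by DUSP5 at 76.3 ± 3.6, SPRY2 at 67.4 ± 1.5 and DUSP1 at 62.9 ± 3.2 RPKM. SPRY4, SPRED2, SPRED1 and DUSP4 came next with 19.9 to 23.3 RPKM. DUSP7 had 9.34 and SPRY1 0.694 RPKM. In vehicle only SPRED1 and DUSP4 overlapped among neighbours in this order. DUSP6 was above 97.4% and SPRY1 above 15.8% of the 11560 tested genes with an annotated length. With Liq the order changed, as DUSP5 had 59.1 ± 1.5 RPKM, DUSP6 55.4 ± 0.7 and DUSP1 54.5 ± 2.1 RPKM (SD, n = 2), and the samples of DUSP6 and DUSP1 overlapped, as did those of SPRED2 and SPRED1. SPRY4 moved from rank 5 to rank 8 of the 10. With the length of the longest transcript in place of the exon union, DUSP5 and SPRY2 changed places in vehicle, as did SPRED1 and DUSP4.

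Summed over the 10 genes, the level was 406.4 and 403.8 RPKM after vehicle and 290.8 and 286.7 RPKM after Liq, 28.7% lower. The 5 DUSP genes together were 28.5% lower and the 5 Sprouty and SPRED genes 29.2% lower, so both sets were lower by a similar share. DUSP6 accounted for 24.9% and 25.9% of the sum in vehicle and for 18.9% and 19.5% with Liq. The share of DUSP1 was 16.0% and 15.02% in vehicle and 19.2% and 18.5% with Liq, although its own level was lower.

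**Figure D3:**
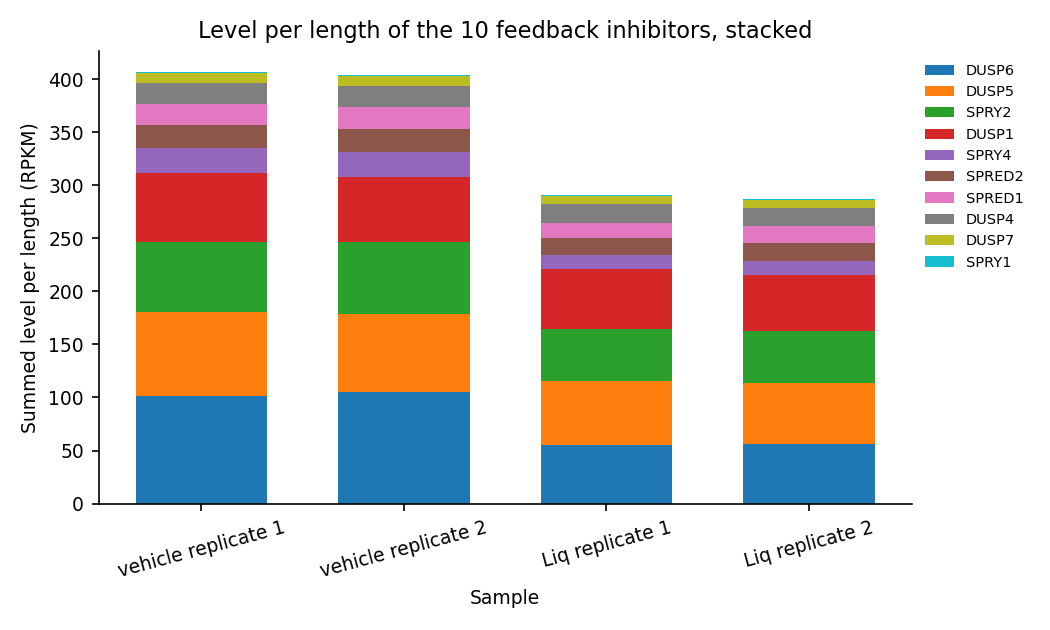
Stacked level per length (RPKM) of the 10 genes in each of the 4 samples. The total height is 406 and 404 RPKM in vehicle and 291 and 287 RPKM in Liq, and the lowest segment, DUSP6, shrinks from 101 and 105 to 54.9 and 55.9 RPKM.

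The rest of the dual-specificity phosphatase, Sprouty and SPRED genes were examined next. Of 21 such genes 13 were tested and 0 were called by edgeR or by DESeq2, beside 6.45% of all genes by edgeR. An unadjusted edgeR p-value under 0.05 was found for 6, beside 4890 of all 13546 tested genes. At the adjusted p-value without a fold limit 1 was lower and 1 higher (against 11.3% and 12.6% of all genes). DUSP10, a JNK and p38 phosphatase, had a log2 fold change of -0.37 (adjusted p = 0.01795), and DUSP16, which acts on JNK, had one of 0.25 (adjusted p = 0.04581). DUSP2, another nuclear phosphatase, had only 25 to 40 counts and a log2 fold change of -0.48 (adjusted p = 0.2757). SPRED3 had 20 to 46 counts and a log2 fold change of -0.74 (adjusted p = 0.1067), which ranged from -1.42 without Liq replicate 1, where it was called, to -0.16 without Liq replicate 2. It was also called with offsets that followed the expression level. SPRY3 and DUSP9 had 0 counts in all samples. The median log2 fold change of the 13 was -0.14, and the genes named from this list were picked after their values were seen.

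Genes of the cascade itself differed little. Of 27 core genes, from adaptors to ERK kinases and scaffolds, 26 were tested and 0 were called by edgeR or DESeq2, beside 6.45% of all genes by edgeR. An unadjusted edgeR p-value under 0.05 was found for 8, beside 4890 of all 13546 tested genes. The median log2 fold change of the 26 was -0.051. At any fold 4 were lower and 2 were higher at the adjusted p-value, beside 11.3% and 12.6% of all genes. The 4 were SHC1, a receptor adaptor (-0.27, adjusted p = 0.003982), the scaffold IQGAP1 (-0.26, adjusted p = 0.004048), the adaptor GRB2 (-0.24, adjusted p = 0.01601) and MAP2K1, which encodes MEK1 (-0.29, adjusted p = 0.007649). MRAS, a RAS relative, was higher (0.43, adjusted p = 0.001926), as was RRAS (0.25, adjusted p = 0.04183). NRAS, a RAS GTPase gene among the 5 core genes most abundant per length, had a log2 fold change of -0.20 (adjusted p = 0.06914, edgeR). MAP2K1, MRAS and RRAS are named here to complete the count.

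Transcripts that ERK signaling is known to raise, other than the members, included many lower ones. Of 20 such genes 19 were tested, 11 were called lower and 0 higher, where 2.16% of all genes were called lower, and the median log2 fold change was -0.60. The list was written with results on some of these genes known. EGR1, an immediate early transcription factor, fell from 127.1 ± 9.4 CPM to 32.9 ± 2.1 CPM (SD, n = 2), by 1.95 on the log2 scale (SE 0.08, edgeR adjusted p = 1.826e-15). EREG, an EGF receptor ligand, fell by 1.34 (adjusted p = 3.225e-11), the ephrin receptor gene EPHA4 by 0.98 (adjusted p = 6.528e-10), the early response gene IER3 by 0.91 (adjusted p = 4.416e-10) and the AP-1 gene JUNB by 0.86 (adjusted p = 7.717e-07). The other 6 called genes were EGR2, EGR3, FOS, FOSB, IER2 and ETV4. They were named to complete the count. Without vehicle replicate 1, without Liq replicate 2 or with upper-quartile scaling, IER2 (-0.60) and ETV4 (-0.60) were not called, and IER2 was not called with offsets along the expression level either.

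Other genes of the same list were not called. At any fold 12 of the 19 were lower and 0 were higher at the adjusted p-value, beside 11.3% and 12.6% of all genes. EPHA2, an ephrin receptor gene that was not called, was among the 12 (-0.22, edgeR adjusted p = 0.01887). CCND1, which encodes cyclin D1, had 1121 and 1147 CPM as group means and a log2 fold change of 0.03 (adjusted p = 0.726), and ETV5, an ETS factor of the PEA3 group, had one of -0.06 (adjusted p = 0.5544). FOSL1 (-0.12, adjusted p = 0.2124) and MYC (0.18, adjusted p = 0.06828, edgeR) were also outside the threshold. CCND1, ETV5, FOSL1 and MYC were picked after their values were seen, and EPHA2 is named to complete the count. The log2 fold changes of DUSP6 and SPRY4 lie among those of the called genes of this list, and DUSP1 and DUSP4 lie nearer to FOSL1.

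**Figure D4:**
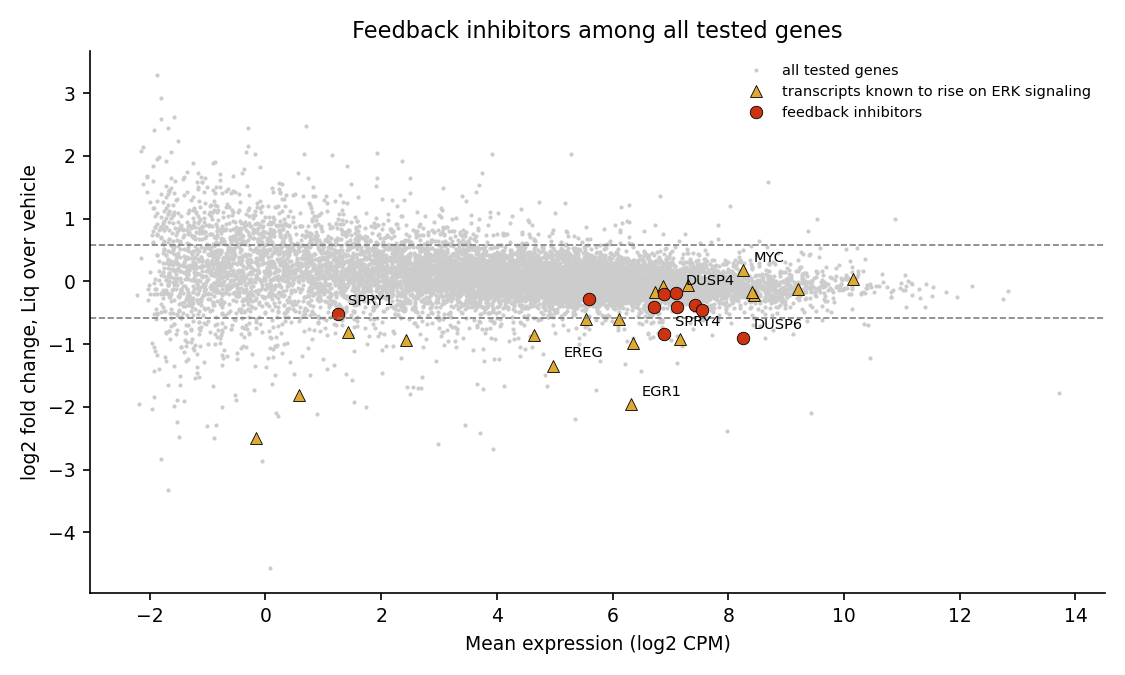
Log2 fold change of Liq over vehicle against mean expression (log2 CPM) for all 13546 tested genes (grey), the 10 feedback inhibitors (red circles) and other transcripts raised by ERK signaling (yellow triangles), with dashed lines at 1.5-fold. Of the circles, 2 are below the lower dashed line (DUSP6 and SPRY4) and the other 8 are between it and 0, while several triangles, EGR1 and EREG among them, lie lower still.

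Among inhibitors of the pathway that belong to other families, 19 of 21 genes were tested. Of these 2 were called lower and 0 higher, where 2.16% of all genes were called lower. The median log2 fold change of the 19 was -0.093. At any fold 6 of the 19 were lower and 1 was higher at the adjusted p-value, beside 11.3% and 12.6% of all genes. SH2B3, an adaptor that restrains cytokine receptor signaling (-0.57, adjusted p = 7.229e-07), and RASA2, a RAS GTPase-activating protein (-0.55, adjusted p = 3.627e-05, edgeR), were among the 6 and were picked after their values were seen. PTPN7, a tyrosine phosphatase that acts on ERK, had 34 counts in each vehicle sample and 8 and 7 in the Liq samples, a log2 fold change of -2.28 (SE 0.40, edgeR adjusted p = 0.0001431). PTPRR, a receptor-type phosphatase of the same group, had 62 and 52 counts against 32 and 46 (log2 fold change -0.67, adjusted p = 0.04879). It was called in 5 of the 11 alternative fits, and in none of the 4 that left out a sample.

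In the JNK and p38 branch, which includes substrates of DUSP1, DUSP10 and DUSP16, 15 of 16 genes were tested. Of these 1 was called (6.67%), beside 6.45% of all genes. At any fold 4 were lower and 0 higher at the adjusted p-value, beside 11.3% and 12.6% of all genes. MAPK13, which encodes p38δ, fell from 12.7 ± 0.1 to 7.20 ± 0.20 CPM (SD, n = 2), by 0.82 on the log2 scale (SE 0.11, edgeR adjusted p = 5.249e-06). The median log2 fold change of the branch was -0.034.

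**Figure D5:**
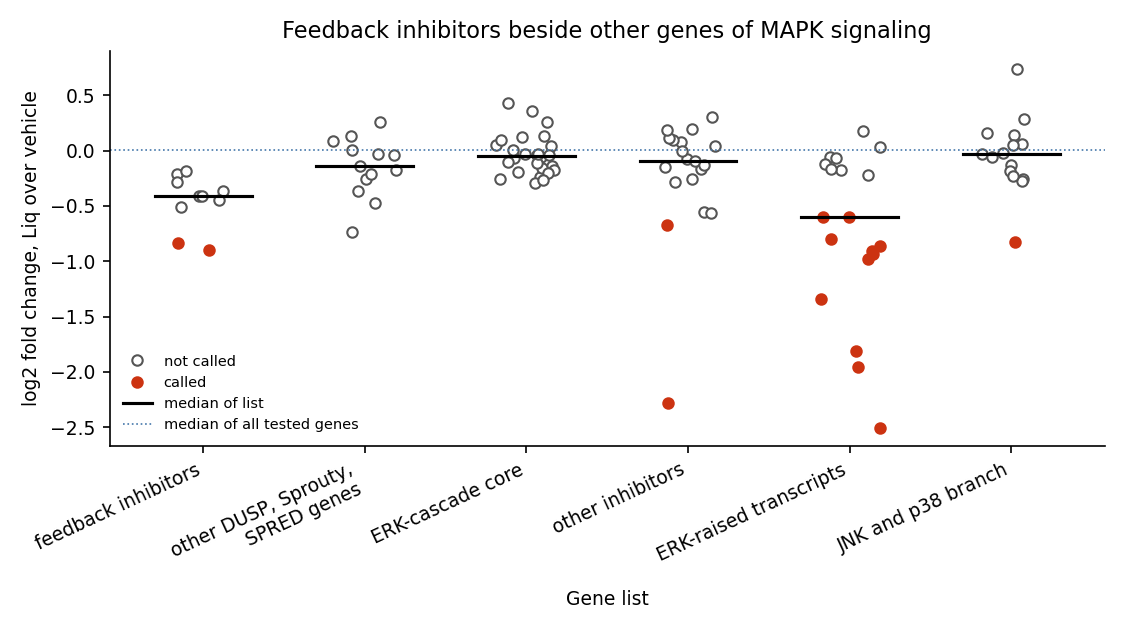
Log2 fold change of each tested gene in the 6 lists, with filled points for called genes, open points for the rest, a bar at the median of each list and a dotted line at the median of all tested genes (0.0062). The median is -0.41 for the feedback inhibitors, -0.60 for the other transcripts raised by ERK and between -0.14 and -0.034 for the remaining 4 lists.

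Genes outside these lists were ranked by how near their log2 CPM, centred over the 4 samples, lay to the mean profile of the members, which was 0.23 in vehicle replicates 1 and 2, -0.22 in Liq replicate 1 and -0.24 in Liq replicate 2. The 5 nearest by Euclidean distance were CD3EAP (0.025), NUDT5 (0.025), RASGRF1 (0.029), LANCL2 (0.035) and SOX7 (0.037). RASGRF1 encodes a RAS exchange factor and was present at 62.0 ± 0.4 CPM after vehicle and 44.6 ± 0.3 CPM after Liq treatment (SD, n = 2).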

How the data were processed

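The authors sequenced TruSeq libraries as single-end reads of 100 bases, aligned them to hg19 (GRCh37) with TopHat2 2.0.8b and counted reads per gene with HTSeq, per the labels. The deposited values are raw counts per gene, 1 table per sample. The 5 closing lines of each table, which tally reads assigned to no gene, were left out of library sizes and tests, and 54.1% to 55.6% of all reads tallied were on genes.

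The tests were run with edgeR 4.0.16 in R 4.3.3, using filterByExpr (minimum count 10, minimum total 15), TMM, glmQLFit and glmQLFTest with all 4 samples and no replicate block. The study used DESeq with a 1.5-fold limit and does not say whether its p-value was adjusted, so the adjusted p-value was used here. SE is the log2 fold change divided by the square root of F. In simulated counts over 13546 genes the Liq against vehicle fit recovered 88 of 100 genes changed by 1 on the log2 scale. Of those changed by 2 it recovered 99 of 100, and DESeq2 recovered 81 and 97. The simulated counts gave every gene the same spread and no replicate effect, so recovery in the real counts was not measured. An exact permutation test of 2 samples against 2 cannot go below p = 0.333, so the tests rest on the spread shared across genes (biological coefficient of variation 0.0575).

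Lengths and positions are from GENCODE mapped to GRCh37. Promoters are from RefSeq on GRCh38.p14 and were matched by symbol only, with chromosome 8 left out for the members. The members, gene lists and tests were chosen with earlier results of these data known. The genes named are the members, per list the 5 called genes of smallest p-value, the 5 core genes highest per length, the 5 genes nearest the members' profile, ESR1 and ESR2, and genes said to be named for other reasons. Some genes that this rule or the marker lists include are not reported here. Alternatives were other normalizations, filters, thresholds, DESeq2 1.42.0, a replicate block and leaving out each sample.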

Additional observations from a re-analysis of the deposited data

How the results depend on the processing

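All 10 members had a negative log2 fold change in the 11 alternative fits, and 109 of 110 values stayed on their side of the call. DUSP6 ranged from -0.92 to -0.81 and SPRY4 from -0.89 to -0.78. The exception was SPRY1, which was called when offsets followed the expression level (loess, span 0.3). That setting moved the median of the members from -0.41 to -0.36 and the share of called genes that were higher from 66.5% to 46.9%. Of the thresholds, no minimum fold change gave 3245 genes, 9 members and 31 other pathway genes, and a 2-fold limit gave 328, 0 and 5, against 874, 2 and 14. The DESeq2 Wald test called 570 genes. The labels give the same-number samples only a number in common, and whether they also shared a culture or a batch is not known. The correlation of their deviations was 0.177 across genes. A replicate block lowered the SE of all 10 members, from 0.066 to 0.042 for DUSP6 and from 0.185 to 0.182 for SPRY1. With the replicate number as a block, 898 genes and 2 members were called, and the paired fit changed no 1.5-fold call of a member, while without a fold limit it gave 10 members lower.

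Leaving out each sample gave 659 to 979 genes, 2 to 2 members, 11 to 15 other pathway genes and medians of -0.45 to -0.39. Low counts limit the precision for SPRY1, SPRED3, DUSP2, ESR1, ESR2, PTPN7 and PAX8, among others. With 3 counts as the floor, the lowest detectable level was 0.061 to 0.087 CPM before TMM scaling, for counting error only.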

Other observations

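Among the markers of the line, 2 of 6 tested genes were called, beside 6.45% of all tested genes. PAX8, a Müllerian lineage factor, had 49 and 46 counts in vehicle and 12 and 29 in Liq (log2 fold change -1.34, edgeR adjusted p = 0.002137). WT1 had 168 and 181 counts against 98 and 140 (log2 fold change -0.68, adjusted p = 0.002849), and without vehicle replicate 2 it was not called. KRT7, a simple epithelial keratin, was in the other direction, with mean levels of 251.8 CPM after vehicle and 357.5 CPM after Liq (log2 fold change 0.51, adjusted p = 1.081e-05), and was called higher without vehicle replicate 1 and with offsets along the expression level. Of the atypical dual-specificity phosphatases, which lack the MAPK-binding domain of the DUSP members, 9 were tested and 0 were called by edgeR or DESeq2. An unadjusted edgeR p-value under 0.05 was found for 3, beside 4890 of all 13546 tested genes. DUSP3, the most abundant of the 9 in CPM, had 146.1 CPM in vehicle and a log2 fold change of -0.18 (edgeR adjusted p = 0.07259). It was picked after its values were seen.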
